A study of Rattus norvegicus with 6 samples.

Results

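The genes described here are those of cholesterol and fatty acid synthesis that are known targets or parts of the SREBP system, read in rat neuroepithelial progenitor cells after retinoic acid exposure of the embryo. The list holds 32 genes: 19 for the mevalonate and sterol steps, 6 in a class called uptake and regulators, and 7 for fatty acid synthesis. A row of the deposited table was taken where its gene symbol matched the list, and among several rows of a symbol the row would have been chosen by its measured level, the highest mean over the 6 samples. Every matched symbol had 1 row, so this choice never arose. There were 28 genes with a row, 16, 6 and 6 in the order of the classes above, out of 20258 tested rows that cover 19634 symbols. Acat2, Mvk, Sc5d and Fasn had no row under those symbols.

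Retinoic acid, the active form of vitamin A, was given to pregnant rat dams by gavage as all-trans retinoic acid at 60 mg/kg in olive oil, and control dams received olive oil alone. Neuroepithelial progenitor cells, which divide to build the early neural tube, were collected at stage E10.5 by flow sorting, and 3 pools of each group were measured by expression array. Each sample pools biological replicates, so p-values measure the spread between pools, and the labels state neither the strain, the gate, the number of embryos per pool nor the time from dosing to collection. ERCC control RNAs, synthetic transcripts sold in a pair of mixes, were added as mix 2 to every retinoic acid pool and as mix 1 to every control pool.

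Animal cells make cholesterol from acetyl-CoA through mevalonate, isoprenoid diphosphates, squalene and lanosterol. SREBPs are transcription factors held in the endoplasmic reticulum with their escort SCAP. When sterols are scarce, SCAP carries them to the Golgi, where proteases free the active part, and when sterols are plentiful, INSIG proteins retain the complex. SREBP2, the product of Srebf2, acts mainly on the sterol genes, and SREBP1, the product of Srebf1, mainly on the fatty acid genes. In the embryo, cholesterol is also attached to hedgehog ligands, which pattern the neural tube.

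Most of these genes were higher in the retinoic acid pools. The expression values are log2 values normalized by the authors, and a difference is the mean of the 3 retinoic acid pools minus the mean of the 3 control pools. A gene is said to be higher or lower where limma's moderated test gave a Benjamini-Hochberg adjusted p under 0.05 over all 20258 rows. By that test 18 of the 28 genes were higher (64.3%), 1 was lower, and 9 did not pass. Over all tested rows 7.69% were higher and 2.06% were lower, and among the rows above the median level, where 27 of the 28 genes lie, 14.0% were higher. The genes' median difference was 0.31 log2 units, against 0.03 over all rows and 0.06 over the rows above the median level. For 22 of the 28 genes every retinoic acid pool lay above every control pool, an arrangement found in 19.0% of all rows and 29.5% of the rows above the median level. The list was drawn up with results of these data known, so these counts are descriptions and carry no test of the list.

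**Figure D1:**
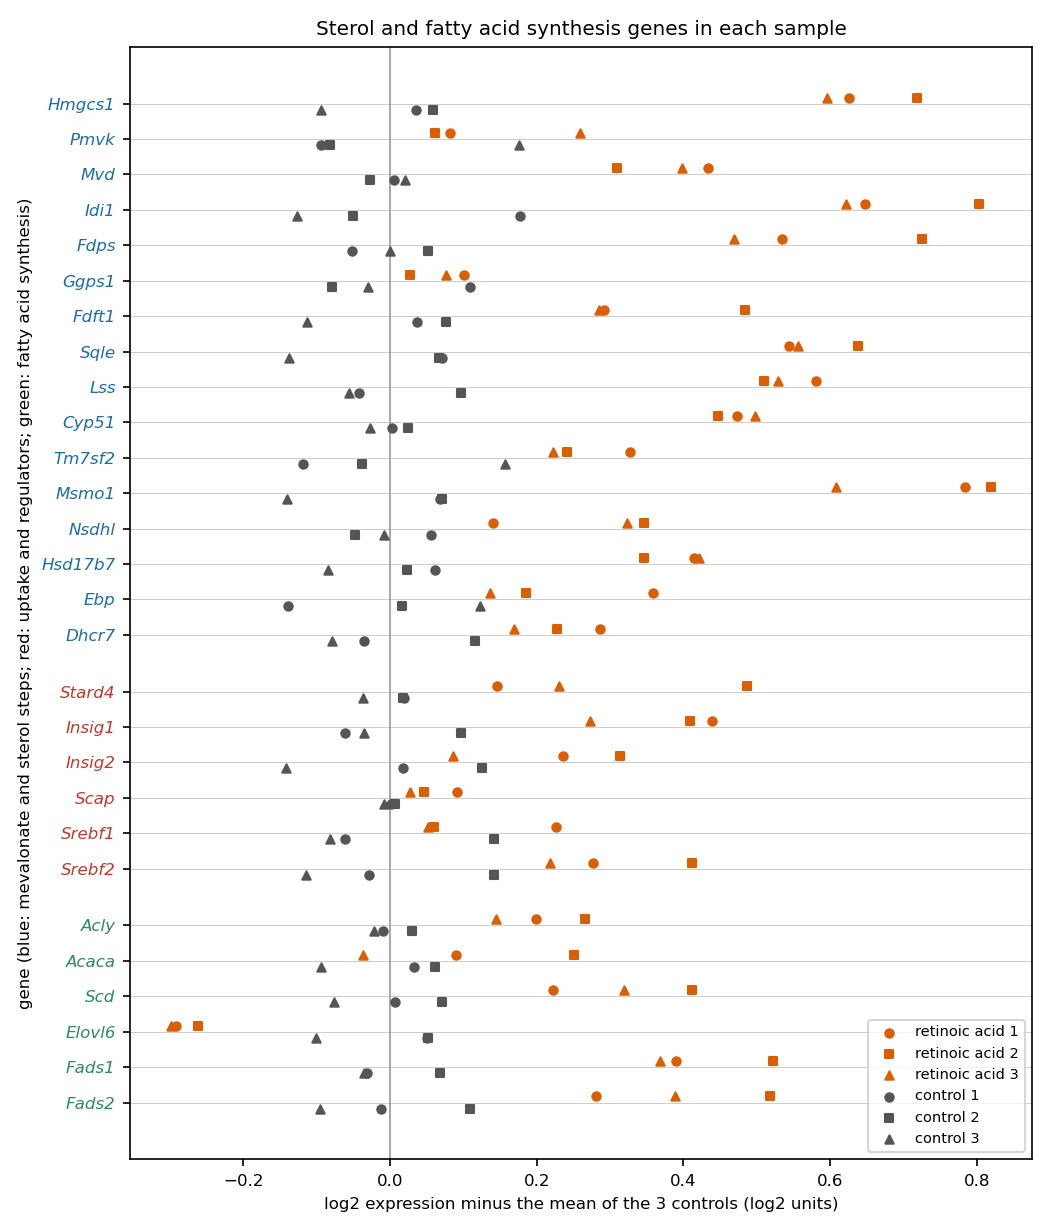
Log2 expression minus the mean of the 3 control pools (horizontal axis, from the authors' normalized values) for each of the 28 genes (vertical axis). The 3 retinoic acid and the 3 control pools have 1 marker each. For 22 genes the 3 retinoic acid markers all lie to the right of the 3 control markers, and for Elovl6 they all lie to the left.

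Promoters of 7 of these genes are shown to display the letters that the motif counts refer to, and no difference or call rests on them. RefSeq promoters (build GRCr8, 250 bases before to 50 after the gene start) were matched for 22 of the 28 genes, and those of Acaca, Elovl6, Fdft1, Pmvk, Sqle and Stard4 were not used here. The motifs searched on both strands were CCAAT (the box bound by NF-Y), CACNCCAC (the core of a sterol regulatory element), TCACNCCAC (a longer form that contains that core), GGGCGG (a GC box, bound by Sp1) and CACGTG (an E-box). Capitals mark CCAAT or its complement ATTGG, and CACNCCAC or its complement. The first 3 promoters belong to the sterol genes with the largest differences, Msmo1 (chr16:29746863-29747162, plus strand), Idi1 (chr17:66547475-66547774, minus strand) and Hmgcs1 (chr2:53382054-53382353, plus strand).
Msmo1: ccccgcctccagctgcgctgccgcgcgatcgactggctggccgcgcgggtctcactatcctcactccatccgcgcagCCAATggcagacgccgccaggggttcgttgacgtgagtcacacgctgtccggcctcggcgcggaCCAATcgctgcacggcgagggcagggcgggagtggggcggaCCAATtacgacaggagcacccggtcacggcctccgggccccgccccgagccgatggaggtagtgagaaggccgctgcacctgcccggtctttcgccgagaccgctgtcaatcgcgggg
Idi1: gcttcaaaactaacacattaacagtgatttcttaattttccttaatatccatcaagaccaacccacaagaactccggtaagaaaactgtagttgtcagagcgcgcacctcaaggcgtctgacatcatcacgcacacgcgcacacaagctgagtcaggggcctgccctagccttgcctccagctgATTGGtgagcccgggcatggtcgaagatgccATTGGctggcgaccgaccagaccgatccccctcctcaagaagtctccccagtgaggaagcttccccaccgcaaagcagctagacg
Hmgcs1: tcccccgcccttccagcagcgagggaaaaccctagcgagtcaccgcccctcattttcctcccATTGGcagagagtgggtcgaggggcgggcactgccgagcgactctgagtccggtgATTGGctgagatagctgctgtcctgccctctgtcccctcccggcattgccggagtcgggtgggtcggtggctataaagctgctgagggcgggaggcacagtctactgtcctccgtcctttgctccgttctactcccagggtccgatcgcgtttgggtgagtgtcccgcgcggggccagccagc
Nsdhl (chrX:155817110-155817409, plus strand) is shown for its 5 CCAAT boxes.
Nsdhl: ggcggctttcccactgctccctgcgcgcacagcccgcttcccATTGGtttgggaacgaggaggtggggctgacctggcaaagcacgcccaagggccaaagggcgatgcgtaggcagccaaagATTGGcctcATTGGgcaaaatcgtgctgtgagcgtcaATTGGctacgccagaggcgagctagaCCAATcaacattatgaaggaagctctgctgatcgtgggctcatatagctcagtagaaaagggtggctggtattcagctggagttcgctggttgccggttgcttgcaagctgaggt
Insig1 (chr4:8057720-8058019, minus strand) and Fads1 (chr1:216252442-216252741, plus strand), a regulator and a fatty acid gene that were both higher, hold both kinds of motif.
Insig1: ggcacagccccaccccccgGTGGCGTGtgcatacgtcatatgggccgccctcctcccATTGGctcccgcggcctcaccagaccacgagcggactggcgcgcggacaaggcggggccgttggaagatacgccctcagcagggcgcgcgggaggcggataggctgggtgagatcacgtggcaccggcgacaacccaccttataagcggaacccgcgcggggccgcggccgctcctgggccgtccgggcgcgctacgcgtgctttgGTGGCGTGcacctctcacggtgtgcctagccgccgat
Fads1: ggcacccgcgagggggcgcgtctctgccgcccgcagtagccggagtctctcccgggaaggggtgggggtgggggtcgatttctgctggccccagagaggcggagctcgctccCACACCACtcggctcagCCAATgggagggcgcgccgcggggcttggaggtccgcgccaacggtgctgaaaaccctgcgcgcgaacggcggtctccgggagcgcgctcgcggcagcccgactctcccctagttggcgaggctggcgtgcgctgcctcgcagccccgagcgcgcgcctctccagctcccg
Scap (chr8:119184188-119184487, plus strand) did not pass the test and holds neither, so its sequence has no capitals.
Scap: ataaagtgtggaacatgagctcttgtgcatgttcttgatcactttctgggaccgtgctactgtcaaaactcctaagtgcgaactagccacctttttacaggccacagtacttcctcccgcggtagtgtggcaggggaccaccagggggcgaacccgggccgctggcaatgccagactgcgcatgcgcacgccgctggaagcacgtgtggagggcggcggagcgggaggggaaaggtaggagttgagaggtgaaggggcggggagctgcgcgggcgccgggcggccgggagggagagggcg

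CCAAT stood in 18 of the 22 matched genes (81.8%), against 37.5% of all 33469 promoters of the table and 38.1% of the 8622 promoters of genes with a tested row above the median level. By class it stood in 11 of 13 sterol genes, 4 of 5 regulators and 3 of 4 fatty acid genes. Of the matched genes that did not pass, Ebp, Ggps1, Insig2, Srebf1 and Acly held CCAAT, and Scap and Dhcr7 did not. Among the higher genes, Cyp51 and Fads2 held neither CCAAT nor CACNCCAC, and the others matched held CCAAT. Whether motifs and calls go together was not tested. GGGCGG stood in 17 of the 22 (77.3%), against 33.1% and 63.5% of the same promoter sets, and the median GC content was 65.0% for the genes' promoters and 51.7% for all promoters. The core CACNCCAC was found in Ebp, Insig1 and Fads1 (13.6% of the 22), against 5.8% and 5.7%. TCACNCCAC was in none of the 22 and in 1.1% of all promoters. CACGTG was found in Insig1 and Scap (9.1% of the 22), against 6.4% of all promoters and 9.7% of those of genes above the median level. A match describes the letters of this window, and a missing match says nothing about binding of a factor here or elsewhere.

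The mevalonate and sterol steps held the largest differences. Of the 16 genes measured, 12 were higher and none was lower by limma (none lower at an unadjusted p under 0.05 either), 4 did not pass, all 16 differences were positive, from 0.07 to 0.74, and the median was 0.39 log2 units. The median of the 16 genes, taken in each pool relative to the control mean, was 0.42, 0.40 and 0.41 in retinoic acid pools 1, 2 and 3, against 0.02, 0.02 and -0.04 in control pools 1, 2 and 3. Within each group the pools lay close together, far closer than the groups lay to each other.

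Among the early, mevalonate steps, Hmgcs1 makes HMG-CoA from acetyl-CoA units. It measured 10.44, 10.53 and 10.41 in the retinoic acid pools, against 9.85, 9.87 and 9.72 in the control pools. The groups are wide apart, and each is narrow. The difference was 0.65 ± 0.07 log2 units (SE), 1.56-fold, with a limma adjusted p of 2.23e-05. Pmvk, the phosphomevalonate kinase, measured 6.74, 6.72 and 6.92 in the retinoic acid pools, against 6.56, 6.57 and 6.83 in the control pools. In both groups the third pool was the highest, and the groups overlap (difference 0.13, limma adjusted p 0.384). Mvd, which decarboxylates mevalonate diphosphate to isopentenyl diphosphate, measured 8.38, 8.25 and 8.34 in the retinoic acid pools, against 7.95, 7.92 and 7.96 in the control pools. Its groups do not overlap, and it was 1.30-fold higher (0.38 ± 0.07, limma adjusted p 0.00146).

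The next enzymes join isoprenoid units. Idi1, the isomerase that makes dimethylallyl diphosphate, measured 9.24, 9.40 and 9.22 in the retinoic acid pools, against 8.77, 8.55 and 8.47 in the control pools. All retinoic acid pools were clear of the highest control pool, control 1. It was 1.61-fold higher (0.69 ± 0.08, limma adjusted p 5.16e-05). Fdps, the farnesyl diphosphate synthase, measured 10.58, 10.77 and 10.51 in the retinoic acid pools, against 9.99, 10.10 and 10.04 in the control pools. The groups do not overlap, with retinoic acid pool 2 the highest, and the fold was 1.49 (0.58 ± 0.08, limma adjusted p 0.000122). Ggps1 makes geranylgeranyl diphosphate, which is attached to proteins and leads away from sterols. It measured 7.52, 7.44 and 7.49 in the retinoic acid pools, against 7.53, 7.34 and 7.39 in the control pools, so that the highest value of all was in a control pool. The difference was 0.07 ± 0.07 (limma adjusted p 0.658).

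Fdft1 makes squalene, the first compound committed to sterols. It measured 10.84, 11.03 and 10.83 in the retinoic acid pools, against 10.59, 10.63 and 10.44 in the control pools. No retinoic acid pool overlaps the control range, with a difference of 0.35 ± 0.08 (1.28-fold, limma adjusted p 0.00651). That call ended under quantile and cyclic loess normalization, where the difference was 0.17 in both (limma adjusted p 0.0868 and 0.0906). Sqle, the squalene epoxidase, measured 9.64, 9.73 and 9.65 in the retinoic acid pools, against 9.16, 9.16 and 8.95 in the control pools. Its groups are well apart, with control 3 the lowest, and it was 1.49-fold higher (0.58 ± 0.07, limma adjusted p 9.34e-05). Lss closes the ring to lanosterol and measured 8.71, 8.64 and 8.66 in the retinoic acid pools, against 8.09, 8.22 and 8.07 in the control pools. Both groups stand clear of each other, and the fold was 1.45 (0.54 ± 0.07, limma adjusted p 0.000102).

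The steps after lanosterol strip its methyl groups and shift its double bonds. Cyp51, the lanosterol demethylase, measured 9.22, 9.20 and 9.25 in the retinoic acid pools, against 8.75, 8.77 and 8.72 in the control pools. Both groups were tight and far apart, with a fold of 1.39 (0.47 ± 0.07, limma adjusted p 0.000193). Msmo1, the methylsterol oxidase, had the largest difference of the 28 genes, and counted from the highest positive difference it ranked 27 among all tested rows. It measured 10.42, 10.46 and 10.25 in the retinoic acid pools, against 9.71, 9.71 and 9.50 in the control pools. In both groups the third pool was the lowest, and the groups are far apart. The fold was 1.67 (0.74 ± 0.08, limma adjusted p 1.99e-05). Hsd17b7, a sterol ketoreductase, measured 8.31, 8.24 and 8.32 in the retinoic acid pools, against 7.96, 7.92 and 7.81 in the control pools. Control 3 was the lowest, all retinoic acid pools were above all controls, and it was 1.31-fold higher (0.39 ± 0.07, limma adjusted p 0.00129).

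Nsdhl and Tm7sf2 passed closer to the threshold. Nsdhl, a sterol dehydrogenase that works in the same demethylation as Msmo1, measured 8.88, 9.09 and 9.06 in the retinoic acid pools, against 8.80, 8.69 and 8.73 in the control pools. Retinoic acid pool 1 lay just above control pool 1 (difference 0.27 ± 0.07, limma adjusted p 0.0255). The call was lost without control 2 (limma adjusted p 0.0993), without control 3 (0.0719), without retinoic acid pool 2 (0.0879) and without retinoic acid pool 3 (0.0903), and under quantile (0.0948) and cyclic loess (0.086) normalization. Tm7sf2, a sterol reductase, measured 7.99, 7.91 and 7.89 in the retinoic acid pools, against 7.55, 7.63 and 7.82 in the control pools. Control 3 stood well above the other control pools and close to the retinoic acid pools. The difference was 0.26 ± 0.08 (limma adjusted p 0.0374). Leaving out any 1 pool other than control 3 ended the call, with limma adjusted p between 0.0593 and 0.195. It also ended under quantile normalization (0.0895) and cyclic loess (0.075), when all main rows were tested (0.059), and in the authors' deposited table (0.0625).

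Among the last steps to cholesterol, Ebp and Dhcr7 were less clear. Ebp, the sterol isomerase, measured 8.47, 8.30 and 8.25 in the retinoic acid pools, against 7.98, 8.13 and 8.24 in the control pools. The lowest retinoic acid pool cleared the highest control pool by only 0.01 log2 units, and Ebp did not pass (0.23 ± 0.08, limma adjusted p 0.0932). Dhcr7, which reduces 7-dehydrocholesterol to cholesterol, measured 8.54, 8.48 and 8.42 in the retinoic acid pools, against 8.21, 8.36 and 8.17 in the control pools. Every retinoic acid pool lay above every control pool, yet Dhcr7 did not pass either (0.23 ± 0.07, limma adjusted p 0.0564). Both passed with array weights (limma adjusted p 0.0272 for Ebp and 0.035 for Dhcr7) and when only rows above the median level were tested (0.0359 and 0.0219). Dhcr7 also passed with trend and robust moderation (0.0423) and without control 2 (0.0372).

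For the listed genes without a row under their symbol, the Entrez identifiers of the file were looked up in the RefSeq gene table, after the other values had been seen. The row named Sc5dl is the gene now called Sc5d, the sterol desaturase that acts before Dhcr7. It measured 10.16, 10.46 and 10.33 in the retinoic acid pools, against 9.79, 9.88 and 9.70 in the control pools. All retinoic acid pools were above all control pools, and it was 1.44-fold higher (0.53 ± 0.08, limma adjusted p 0.000472). The row named Acat3 is the gene now called Acat2, a thiolase that joins acetyl-CoA units. It measured 7.62, 7.49 and 7.30 in the retinoic acid pools, against 7.45, 7.45 and 7.51 in the control pools. The retinoic acid pools lay on both sides of the control pools (limma adjusted p 0.991). With these rows, 13 of 18 mevalonate and sterol genes were higher. Mvk and Fasn are not analysed here.

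**Figure D2:**
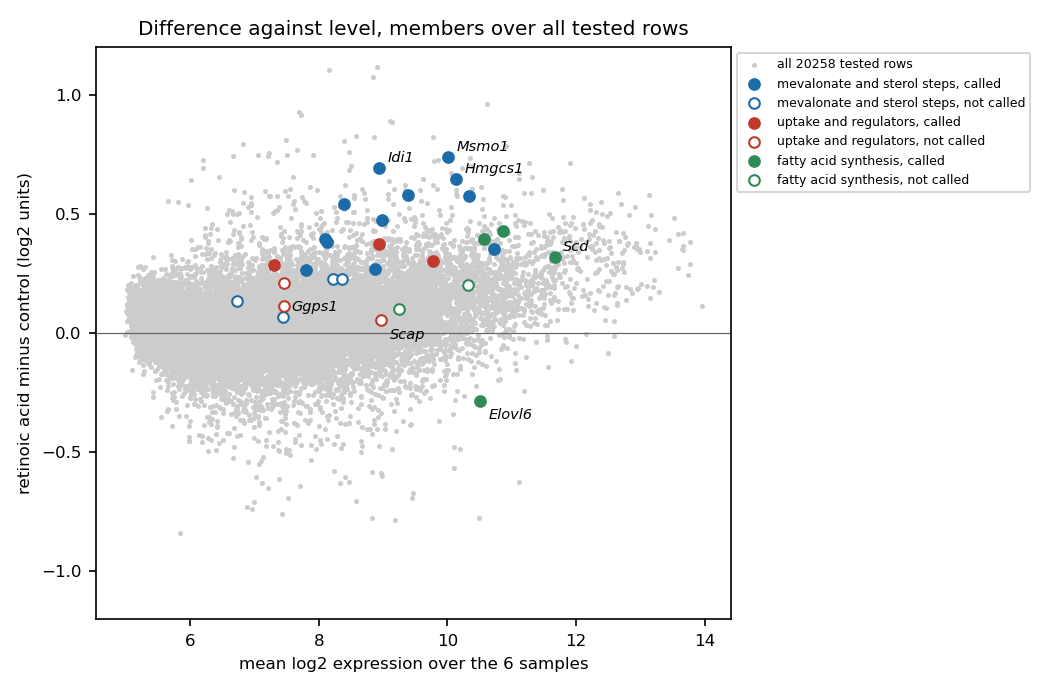
Difference between the groups (vertical axis, retinoic acid minus control, log2 units) against mean log2 expression over the 6 pools (horizontal axis) for all 20258 tested rows (grey) and for the 28 genes (coloured by class, filled where the adjusted p was under 0.05). Msmo1, Idi1 and Hmgcs1 stand highest of the 28, Elovl6 is the only one below 0, and 5 rows lie outside the vertical limits of ±1.2.

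In the class called uptake and regulators, 3 of 6 were higher, 3 did not pass, and the median difference was 0.25 log2 units. Its genes are Insig1, Insig2, Srebf1, Srebf2, Scap and the cholesterol carrier Stard4, and it holds no lipoprotein receptor. Insig1, the INSIG protein whose own gene is a known SREBP target, measured 9.19, 9.16 and 9.03 in the retinoic acid pools, against 8.69, 8.85 and 8.72 in the control pools. Control 2 was the highest control but stayed below every retinoic acid pool, and Insig1 was 1.30-fold higher (0.37 ± 0.07, limma adjusted p 0.00308). Its paralog Insig2 measured 7.58, 7.66 and 7.43 in the retinoic acid pools, against 7.36, 7.47 and 7.21 in the control pools. Retinoic acid pool 3 lay below control 2, so the groups overlap (0.21 ± 0.08, limma adjusted p 0.122). Whether the difference of Insig1 exceeds that of Insig2 was not tested.

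Srebf2, which encodes the sterol-directed SREBP2, measured 9.90, 10.03 and 9.84 in the retinoic acid pools, against 9.59, 9.76 and 9.50 in the control pools. In both groups the second pool was the highest and the third the lowest, and the groups do not overlap. Srebf2 was 1.23-fold higher (0.30 ± 0.08, limma adjusted p 0.0208). The call was lost without control 1 (limma adjusted p 0.0648), control 3 (0.104) or retinoic acid pool 2 (0.0852), and under quantile (0.107) and cyclic loess (0.102) normalization, where the difference was 0.18 in both. Srebf1, which encodes SREBP1, measured 7.63, 7.47 and 7.46 in the retinoic acid pools, against 7.35, 7.55 and 7.33 in the control pools. Control 2 lay among the retinoic acid pools, and Srebf1 did not pass (0.11 ± 0.08, limma adjusted p 0.454).

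Scap, the escort, measured 9.04, 8.99 and 8.97 in the retinoic acid pools, against 8.95, 8.95 and 8.94 in the control pools. Its groups are separate, but they differed by only 0.06 ± 0.07 (limma adjusted p 0.71), and the sign turned under quantile (-0.025) and cyclic loess (-0.021) normalization. Stard4, a carrier of cholesterol between membranes, measured 7.31, 7.65 and 7.40 in the retinoic acid pools, against 7.18, 7.18 and 7.13 in the control pools. Retinoic acid pool 2 stood well above the other pools of its group. The difference was 0.29 ± 0.08 (1.22-fold, limma adjusted p 0.0325). Without retinoic acid pool 2 it was 0.19 (limma adjusted p 0.137), and the call was also lost without any 1 of the control pools (limma adjusted p 0.0635, 0.0797 and 0.104 without control 1, 2 and 3). Median centring (0.0628), a test of all main rows (0.0544) and the authors' deposited table (0.0585) left Stard4 above the threshold as well.

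In the regulator class, leaving out 1 pool decided the count. It was 1 of 6 without control 1, without control 3 or without retinoic acid pool 2, and Insig1 was higher in all 6 fits that left out 1 pool.

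The fatty acid genes were mixed. Of 6 measured, 3 were higher and 1 was lower, and the median difference was 0.26 log2 units. Acly makes cytosolic acetyl-CoA from citrate and so feeds both pathways. It measured 10.42, 10.49 and 10.37 in the retinoic acid pools, against 10.21, 10.25 and 10.20 in the control pools. Every retinoic acid pool was above every control pool, and Acly did not pass (0.20 ± 0.07, limma adjusted p 0.0668), except when only rows above the median level were tested (0.0301). Acaca, the acetyl-CoA carboxylase that begins fatty acid synthesis, measured 9.28, 9.44 and 9.15 in the retinoic acid pools, against 9.22, 9.25 and 9.10 in the control pools. The groups overlap, with retinoic acid pool 2 alone above all control pools by a clear step (0.10 ± 0.08, limma adjusted p 0.52).

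Elovl6, the elongase that extends palmitate to stearate, was the 1 gene that was lower. It measured 10.36, 10.39 and 10.35 in the retinoic acid pools, against 10.70, 10.70 and 10.55 in the control pools. Every retinoic acid pool lay below every control pool, and the difference was -0.28 ± 0.07 (limma adjusted p 0.0137). The call was lost without control 1 (limma adjusted p 0.0698) or control 2 (0.0625). Under quantile and cyclic loess normalization the difference reached as far as -0.45.

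The listed desaturases, Fads1, Fads2 and Scd, were higher. Outside the list, the desaturase rows Fads3 (0.19, limma adjusted p 0.136) and Scd4 (-0.06, limma adjusted p 0.705) did not pass. Fads1 and Fads2 put double bonds into polyunsaturated fatty acids and lie near each other on chromosome 1, at 212670771 to 212685718 on the plus strand and 212512692 to 212542621 on the minus strand in the file's coordinates, for which the sources used here name no build. Fads1 measured 11.04, 11.18 and 11.02 in the retinoic acid pools, against 10.62, 10.72 and 10.62 in the control pools. The groups do not overlap, with the second pool the highest in each, and the fold was 1.34 (0.43 ± 0.07, limma adjusted p 0.000839). Fads2 measured 10.65, 10.89 and 10.76 in the retinoic acid pools, against 10.36, 10.48 and 10.27 in the control pools. Its groups do not overlap either, and the fold was 1.32 (0.40 ± 0.08, limma adjusted p 0.00324). Both kept their calls under quantile and cyclic loess normalization, with smaller differences, down to 0.23 for Fads1 and 0.22 for Fads2.

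The row named Scd carries the Entrez identifier of the gene now called Scd2, a stearoyl-CoA desaturase, which makes monounsaturated fatty acids. It measured 11.73, 11.92 and 11.83 in the retinoic acid pools, against 11.52, 11.58 and 11.43 in the control pools. The groups do not overlap (0.32 ± 0.07, 1.25-fold, limma adjusted p 0.00911), but under quantile and cyclic loess normalization the difference was 0.05 and 0.07 (limma adjusted p 0.646 and 0.495). The row named Scd1 is the gene now called Scd, found by its Entrez identifier after the values were seen. It measured 10.24, 10.49 and 10.43 in the retinoic acid pools, against 9.72, 9.78 and 9.64 in the control pools. The groups are wide apart, with a 1.59-fold difference (0.67 ± 0.08, limma adjusted p 3.2e-05) that was called under both of those normalizations too, and not with the spike-in shift described below (limma adjusted p 0.0582). These genes are close paralogs, and the sharing of probes between them was not tested.

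**Figure D3:**
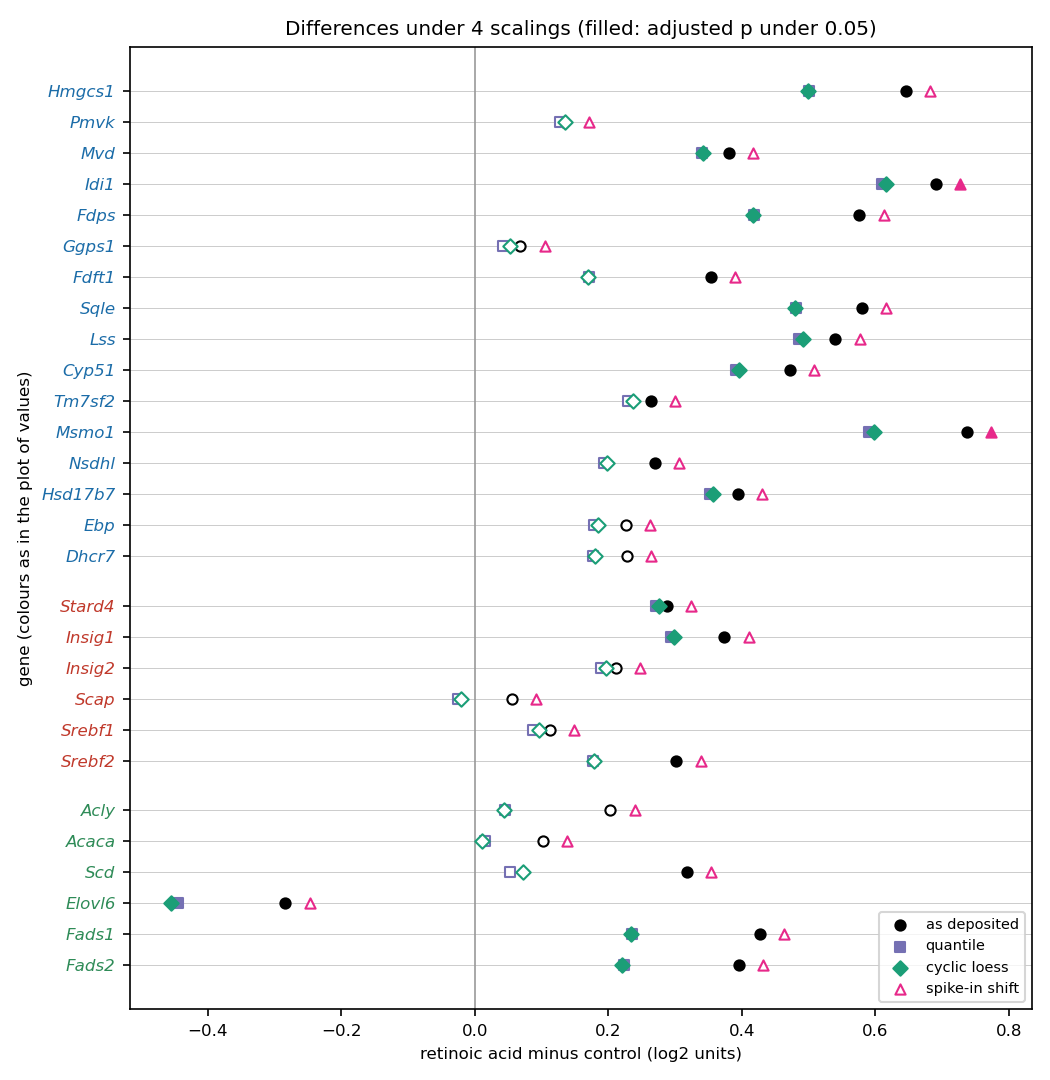
Difference between the groups (horizontal axis, retinoic acid minus control, log2 units) for each gene (vertical axis) under the authors' normalization, quantile, cyclic loess and a shift by the spike-ins, filled where the adjusted p was under 0.05. The sterol genes with the largest differences stay to the right under every scaling, whereas Scd moves toward 0 under quantile and cyclic loess.

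The values of each class depended on how the pools were scaled. Under quantile and cyclic loess normalization, which bring the distributions of the pools together, 9 of 16 sterol genes were higher with a median difference of 0.35 in both, and Fdft1, Tm7sf2 and Nsdhl were the 3 that lost their calls. The fatty acid median was 0.05 and 0.06 under the same scalings, against 0.26 under the authors' normalization. That median includes the row Scd, now called Scd2, and not the row Scd1, whose difference was at least 0.53 in every setting. Over all rows these scalings gave 823 higher and 785 lower, and 859 higher and 767 lower, against 1558 higher and 417 lower under the authors' normalization. The pools differed in spread before that step: the SD over rows was 1.60, 1.67 and 1.61 in retinoic acid pools 1, 2 and 3, against 1.59, 1.62 and 1.54 in control pools 1, 2 and 3. Retinoic acid pool 2 was the highest of its group in 16 of the 28 genes and retinoic acid pool 3 the lowest in 17. Among the controls, control 2 was the highest in 18 and control 3 the lowest in 20. Whether the classes differ from each other was not tested.

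All 23 spike-ins of nominal ratio 1 were averaged in each pool, and 8 of them had a mean level above 8. The deviation of the average over all 23 from its mean over the pools ran from -0.29 log2 units in control 3 to 0.22 in control 2. A shift that subtracts this deviation raised control 3 the most and lowered control 2 the most. With that shift Msmo1 (limma adjusted p 0.0213) and Idi1 (0.0407) were the only ones of the 28 that passed, and 40 rows were higher and 7 lower in all. The sterol median was 0.42 with the shift and 0.39 without it, so calls were lost while that median did not shrink. The rows found by Entrez identifier and the genes around the pathway named below did not pass with that shift, among them Sc5dl (limma adjusted p 0.334), Acsl4 (0.282) and Abca1 (1). The spike-ins also show the scale of an array difference. Among those above a level of 8, the subgroups with nominal log2 ratios of -2, 0, 0.58 and 1 (retinoic acid over control) had median measured differences of -1.70, -0.10, 0.36 and 0.53. By these medians, nominal ratios other than 1 were measured as smaller. Single spike-ins ranged from -1.83 to -0.18, -0.46 to 0.17, 0.31 to 0.46 and 0.33 to 0.67 in the same order. The subgroups come from general knowledge of the product.

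Genes around the pathway were read as lists, each by its counts and median, beside the 7.69% of all rows that were higher and the 2.06% that were lower. The shares that were higher ran from 0 to 23.5% over these 6 lists, so 1 higher gene of 10 or 15 is near the share over all rows. The proteases, anchors and partner factors of SREBP had 10 rows, none of which passed limma's test (0 also at an unadjusted p under 0.05), with a median difference of 0.04. The smallest p-values there belonged to Mbtps1, the protease that makes the first cut (-0.13, limma adjusted p 0.265), and Sp1 (0.11, limma adjusted p 0.402). Mbtps1 was lower under quantile and cyclic loess normalization (-0.24 in both, limma adjusted p 0.0196 and 0.0202). Of 12 genes that use isoprenoids, none passed limma's test (2 at an unadjusted p under 0.05, both higher), with a median of 0.08, and the nearest were Icmt, which methylates prenylated proteins (0.17, limma adjusted p 0.136), and Fntb, a farnesyltransferase subunit (0.15, limma adjusted p 0.201).

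The liver X receptors, which sense oxysterols, and their targets had 7 rows, 1 higher and 2 lower, with a median of -0.13. Abca1, the cholesterol efflux pump, measured 6.84, 6.96 and 6.83 in the retinoic acid pools, against 7.26, 7.25 and 7.24 in the control pools. The groups do not overlap, and the controls were nearly equal (-0.37 ± 0.07, limma adjusted p 0.0017). Mylip, a ubiquitin ligase that sends lipoprotein receptors to degradation, measured 6.89, 6.72 and 6.85 in the retinoic acid pools, against 7.04, 7.08 and 7.27 in the control pools. Control 3 was the highest, the groups are separate, and Mylip was lower (-0.31 ± 0.08, limma adjusted p 0.0155), a call that was lost without control 3 (limma adjusted p 0.0876) or retinoic acid pool 2 (0.065). Lpcat3, which puts polyunsaturated chains into phospholipids, was higher (0.26 ± 0.07, limma adjusted p 0.0219). Its call was lost without control 1 (limma adjusted p 0.062), control 3 (0.0926) or retinoic acid pool 2 (0.0795), and its difference was 0.11 under quantile and cyclic loess normalization.

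Of 10 genes for sterol transport and storage, Vldlr, a lipoprotein receptor, was the 1 that was higher (0.23 ± 0.07, limma adjusted p 0.043), and leaving out any 1 pool ended that call (limma adjusted p 0.0638 to 0.175). The list's median was 0.13. Of 17 genes for fatty acid supply and elongation, 4 were higher and none lower, with a median of 0.11. Acsl4, which activates arachidonate, measured 9.87, 10.06 and 9.92 in the retinoic acid pools, against 9.54, 9.53 and 9.14 in the control pools. Control 3 stood far below the other controls, and the groups do not overlap (0.54 ± 0.09, limma adjusted p 0.0012, at most 0.00805 when 1 pool was left out).

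The other 3 passed with smaller differences. Tecr, the last enzyme of chain elongation, had a difference of 0.30 (limma adjusted p 0.0132), lost without control 3 (0.0613) or retinoic acid pool 2 (0.0581). Elovl5, the elongase of polyunsaturated chains, had 0.27 (limma adjusted p 0.0212), lost without control 3 (0.101), retinoic acid pool 2 (0.0712) or retinoic acid pool 3 (0.0518). Aacs, which activates acetoacetate for lipid synthesis, had 0.25 (limma adjusted p 0.0445), and the call held in 1 of the 6 fits that left out a pool, the one without retinoic acid pool 2. Under quantile and cyclic loess normalization the difference was 0.03 and 0.05 for Tecr and 0.08 for Elovl5 in both. Of 15 genes of fatty acid oxidation, Acadm, which dehydrogenates medium-chain acyl-CoA, was the 1 that was higher (0.28, limma adjusted p 0.0139; 0.053 without control 3), and the median was 0.02.

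**Figure D4:**
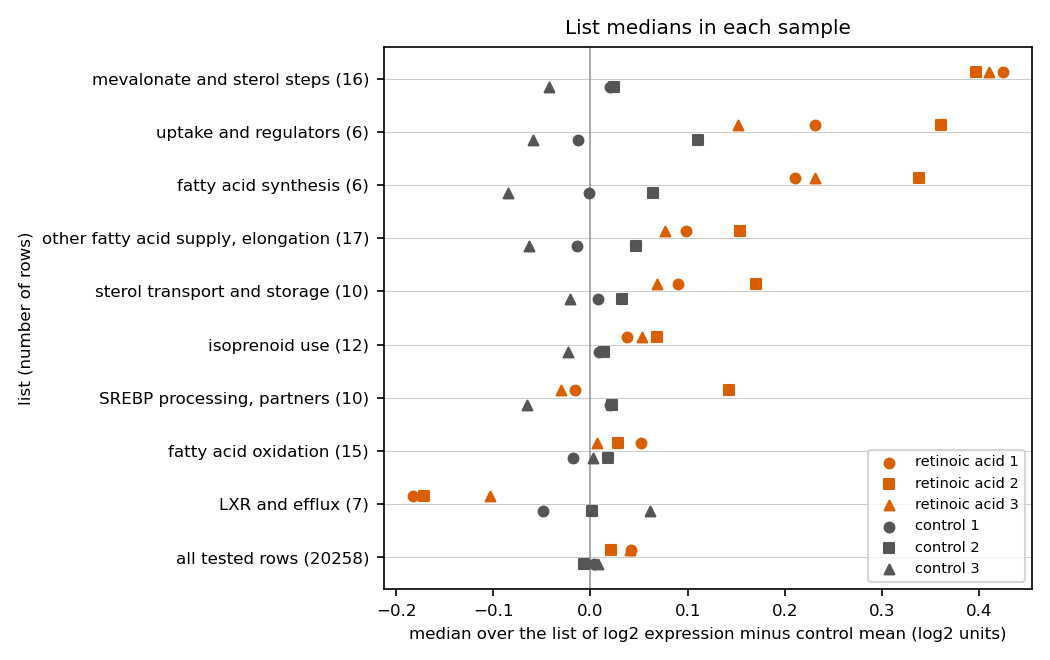
Median over each list of the log2 expression relative to the control mean (horizontal axis, log2 units) in each retinoic acid and control pool, with the number of rows of each list on the vertical axis. The sterol genes sit at 0.40 to 0.42 in the retinoic acid pools, away from the lists around the pathway, which lie nearer 0.

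Some markers of the sorted cells and of other cell types differed between the same pools. Over all tested rows 7.69% were higher and 2.06% lower, and 14.0% of the rows above the median level were higher. No marker list was tested against these shares. Of 6 neural progenitor markers 2 were higher and none lower: Sox2 (0.83, limma adjusted p 6.32e-06) and Pax6 (0.42, limma adjusted p 0.00127). The log2 summed level of all 6 was 11.65 to 11.73 in the retinoic acid pools and 11.39 to 11.54 in the control pools. Cdh2, the highest of the 6 at a mean level of 10.71, did not pass (limma adjusted p 0.377). All 5 cardiac markers were higher, with summed levels of 10.36 to 10.43 in the retinoic acid pools and 9.28 to 9.30 in the control pools. All 5 endothelial markers were lower, with 10.16 to 10.26 in the retinoic acid pools and 10.80 to 10.86 in the control pools. Of 8 mesoderm markers 1 was higher and 4 lower, with 11.88 to 11.97 in the retinoic acid pools and 12.09 to 12.21 in the control pools. Prrx1, the highest of the 8 at a mean level of 10.83, did not pass (limma adjusted p 0.674).

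Erythroid markers (2 of 5 higher, Hbe1 and Hbe2) summed to 13.98 to 14.12 in the retinoic acid pools and 13.57 to 13.81 in the control pools. Hbe1, an embryonic globin, made up nearly all of that sum, and Hba-a2, Gata1 and Klf1 did not pass. Surface ectoderm markers (2 of 6 higher) summed to 10.63 to 10.73 in the retinoic acid pools and 10.45 to 10.60 in the control pools. Yolk sac endoderm markers (1 of 7 lower, Afp at -0.33) summed to 10.32 to 10.42 in the retinoic acid pools and 10.46 to 10.52 in the control pools. An array has no true 0, so none of these markers can be called absent. The part of these shifts in the differences of the sterol and fatty acid genes was not tested, and in pooled cells a change in the share of a cell type and a change in RNA per cell cannot be told apart.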

How the data were processed

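RNA of 6 pools of sorted rat neuroepithelial progenitor cells, 3 from retinoic acid and 3 from control embryos, was hybridised to arrays labelled with biotin by the Affymetrix procedure, per the labels' protocols. The authors deposited 1 table of 29656 rows with log2 expression values from 4.77 to 14.35. For the normalization, array design and genome build, the sources used here give no name. The table also holds the authors' p-values, unadjusted and adjusted, and their t and B scores, per the file headers. Limma is named, with no version, in the submitters' processing notes. The control columns are prefixed WT and were matched to the controls of the same number.

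Array controls (167 rows, which include 92 ERCC rows) and 9231 rows that carry neither gene name nor accession were left out. The remaining 20258 rows were tested with limma (version 3.58.1, R 4.3.3, functions lmFit and eBayes) as retinoic acid minus control in a two-sided test with no block term, and p-values were adjusted by Benjamini-Hochberg across those rows. No filter on low values was applied. A fold is 2 to the power of the log2 difference. The genes, the lists around them and the markers were chosen with earlier results of these data known. Around each list up to 4 called genes with the smallest p are named, or 2 where none was called. Names and promoters came from RefSeq tables (GRCr8), and its coordinates are not mixed with those of the file. Of the same-numbered pools, pairs 2 and 3 deviated together (correlation 0.235 over rows in both) and pair 1 did not (-0.11), so the numbers were not used as a pairing. The alternatives were 17 settings of block, moderation, level filter, scaling, weights, rows tested, rows per symbol, left-out pools and the authors' statistics. Median centring and the match by Entrez identifier were chosen after seeing the data. An array has no read depth, and precision is limited by the number of arrays. Some genes of the pathway are not reported here. Python 3.11.15 with matplotlib 3.10.9 drew the figures.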

Additional observations from a re-analysis of the deposited data

How the results depend on the processing

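In each of the 17 further settings in which it was tested, every one of the 28 genes but Scap kept the direction of its difference, and Scap turned to -0.025 under quantile and -0.021 under cyclic loess normalization. The Acat3 row, near 0, turned to 0.034 with the spike-in shift and ranged from -0.078 to 0.082 when 1 pool was left out. The spike-in shift left 40 rows higher and 7 lower, 2 sterol genes, 0 regulators and 0 fatty acid genes higher, 0 members lower, and a sterol median of 0.42. Quantile normalization gave 823 rows higher and 785 lower, a sterol median of 0.35 and a fatty acid median of 0.049, and cyclic loess 859 higher, 767 lower, 0.35 and 0.058. Rows called lower were 826 with all main rows tested and 812 in the authors' deposited statistics. The last 2 counts are taken over all main rows, which include the 9231 with neither gene name nor accession. They therefore cover more rows than the counts of the other settings. The causes of these changes were not tested. Leaving out 1 pool at a time gave 949 to 1261 rows higher, 254 to 352 lower, 10 to 11 sterol genes higher with a median of 0.37 to 0.42, 1 to 3 regulators higher, and 0 to 1 members lower (0 without control 1 or control 2). With the replicate block, 1876 rows were higher and 540 lower, with 13 sterol genes, 4 regulators and 3 fatty acid genes higher, so no count moved by over 1.5 times. Insig2 (limma adjusted p 0.0408) and Dhcr7 (0.037) were the 2 that gained a call there. Retinoic acid pools 2 and 3 correlated best with the control of their own number (0.235 in both), but pool 1 correlated best with control 3 (0.201) and not with control 1 (-0.11), so the numbers were not taken as pairs. Limits are the 3 pools a group, differences that the spike-ins show to be compressed, and mixes that differ between the groups.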
